A study of Mus musculus with 24 samples.

Results

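The Bcl2 family members described here are 10 mouse genes out of 15736 genes in the count table. They were chosen by name and function and not by a cut on their values, though with earlier results of these data known. They comprise 5 BH3-only death genes (Bcl2l11, Bmf, Bbc3, Pmaip1 and Bid), 2 effector genes (Bax and Bak1) and 3 survival genes (Bcl2, Bcl2l1 and Mcl1). All 10 were in the table and passed the filter on low counts in every comparison. Proteins of this family decide whether the outer mitochondrial membrane stays intact. Survival proteins hold the effectors in check, BH3-only proteins bind and neutralise the survival proteins or activate the effectors, and active effectors make the pores through which cytochrome c leaves to start the caspase cascade. Growth factor receptors, those for fibroblast growth factors (FGFs) among them, are known to act on the family through MAP kinase and AKT signalling. Programmed cell death is a normal event in the developing otocyst, the epithelial vesicle that becomes the inner ear.

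RNA was sequenced from dissected otocyst epithelium after blocking of ligands of the receptors FGFR1b and FGFR2b. Every embryo compared here carried the allele Rosa26rtTA/+, from which the doxycycline-dependent activator rtTA is made in most tissues. Control pools (con) had that allele alone. Experimental pools (R2b) had Rosa26rtTA/+;Tg(tetO-s(dn)Fgfr2b)/+, a transgene that on doxycycline makes a soluble, secreted, dominant-negative form of FGFR2b. The soluble receptor is induced beyond the ear as well, so effects from neighbouring tissue are included in the comparison. Both genotypes were exposed to doxycycline, injected into the pregnant female at 1.5 mg/kg and then given in chow with 200 mg/kg. Exposure to doxycycline ran for 12 hours from embryonic stage E9.75 (the 12-hour exposure, E9.75+12h in plots), for 24 hours from E9.25 (the early 24-hour exposure, E9.25+24h) or for 24 hours from E10.25 (the late 24-hour exposure, E10.25+24h). The former pair both ended at E10.25 and are called the early exposures, whereas the last ended at E11.25. Otocysts of a pregnant female's embryos were pooled by genotype, and a litter here is the resulting con and R2b pools. Counts of 3 litters were used in the 12-hour exposure and of 4 litters at each of the other exposures, which makes 22 libraries.

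Library totals were 18.7 to 28.2 M counts. Of 12 otic epithelium markers, among them Pax2, Oc90 and Epcam, all were in the table, and none was under 1 CPM (counts per M counts of the library) on average in any group. Their summed level was 3707 to 4009 CPM in con and 4185 to 5021 CPM in R2b in the 12-hour exposure, and 2244 to 3600 CPM against 3197 to 5087 CPM in the early 24-hour exposure. At these exposures 6 of 12 (5 higher) and 5 of 12 (2 higher) were called, beside 20% and 15.6% of all genes. The soluble receptor is fused to an immunoglobulin Fc part, so reads of Ighg1 mark the transgene. Ighg1 was at 0.958 to 1.90 CPM in con and 1001 to 2979 CPM in R2b in the 12-hour exposure, and at 0.0479 to 0.248 CPM against 1229 to 1892 CPM in the early 24-hour exposure. In the late 24-hour exposure these reads went against the labels. The library labelled con of litter 1 had 702.5 CPM of Ighg1 and its partner labelled R2b had 56.3 CPM, and the library labelled con of litter 3 had 206 CPM. The other con libraries of that exposure had 1.46 and 0.758 CPM. Fgfr2, whose reads come from the transgene as well as the gene itself, was at 909 CPM in the library labelled con of litter 1 and 323 CPM in its partner. Results in the late 24-hour exposure are therefore given for the libraries as labelled unless another setting is named. For Bmf, Bcl2l1, Bcl2 and Bbc3 they are also given without litter 1, and for Bmf and Bcl2 without litters 1 and 3. Counts of called members and pathway genes without both litters are given at the end. The 11 FGF readout genes (Spry, Etv and Dusp genes among them, known to be switched on by FGF signalling) were all lower in R2b in the 12-hour exposure and in the early 24-hour exposure, and none passed the test in the late 24-hour exposure as labelled. In the 12-hour exposure Dusp6 fell by 1.78, Spry2 by 1.40 and Spry1 by 1.39 on the log2 scale (FDR = 0.000347, 0.000568 and 0.000568), and in the early 24-hour exposure Etv5 fell by 2.42, Spry2 by 1.25 and Spry1 by 1.20 (FDR = 0.000998, 0.000804 and 0.00136).

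To show the regulatory sequence at the start of the genes on which the results turn, promoters were taken from RefSeq on GRCm38.p6, 250 bases before to 50 bases after a transcription start. An entry was found for 9 of the 10 members, and none is given for Pmaip1. Bmf and Bcl2l1 are the pair that passed the test upward at both early exposures, Bcl2 is the member that passed it downward, and Bcl2l11 is a BH3-only member that stayed level. The promoters lie at chr2:118549637-118549936 (Bmf, minus strand), chr2:152831679-152831978 (Bcl2l1, minus strand), chr1:106714241-106714540 (Bcl2, minus strand) and chr2:128125788-128126087 (Bcl2l11, plus strand). Each is written 5′ to 3′ along its gene, with matches to the motifs searched in capitals.
Bmf: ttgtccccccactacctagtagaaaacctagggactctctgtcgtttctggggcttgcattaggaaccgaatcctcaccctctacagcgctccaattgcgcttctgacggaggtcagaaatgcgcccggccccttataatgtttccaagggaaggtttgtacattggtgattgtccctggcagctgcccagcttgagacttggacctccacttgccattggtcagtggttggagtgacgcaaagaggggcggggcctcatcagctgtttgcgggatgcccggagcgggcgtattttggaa
Bcl2l1: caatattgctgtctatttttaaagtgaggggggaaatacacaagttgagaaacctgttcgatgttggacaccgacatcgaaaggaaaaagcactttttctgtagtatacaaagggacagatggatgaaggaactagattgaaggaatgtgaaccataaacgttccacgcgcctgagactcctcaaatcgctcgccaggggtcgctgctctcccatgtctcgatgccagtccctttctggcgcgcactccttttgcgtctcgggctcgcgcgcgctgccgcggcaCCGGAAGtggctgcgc
Bcl2: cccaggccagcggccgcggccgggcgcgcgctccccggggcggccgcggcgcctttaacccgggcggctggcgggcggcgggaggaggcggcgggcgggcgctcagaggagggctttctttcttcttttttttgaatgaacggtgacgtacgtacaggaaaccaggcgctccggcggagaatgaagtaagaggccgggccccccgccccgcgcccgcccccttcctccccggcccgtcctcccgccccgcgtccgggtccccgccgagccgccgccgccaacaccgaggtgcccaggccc
Bcl2l11: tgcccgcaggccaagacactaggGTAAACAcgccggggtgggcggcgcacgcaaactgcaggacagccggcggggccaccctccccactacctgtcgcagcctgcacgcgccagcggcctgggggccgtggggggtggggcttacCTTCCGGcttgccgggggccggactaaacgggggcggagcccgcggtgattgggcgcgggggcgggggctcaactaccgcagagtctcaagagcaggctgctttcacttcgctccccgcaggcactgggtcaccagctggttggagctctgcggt
The motifs searched, on both strands, were a FOXO core (GTAAACA), an ETS core (CCGGAAG), an AP-1 site (TGACTCA), a cAMP response element (TGACGTCA) and the p53 half-site. The Bcl2l11 promoter held the FOXO core at base 24 and the ETS core, on its other strand, at base 146. The Bcl2l1 promoter held the ETS core at base 285, and so did that of Mcl1 at base 188. The Bax promoter held a p53 half-site at base 50. No searched motif was found in these windows of Bmf, Bbc3, Bid, Bak1 or Bcl2, which says only that the letters are not in the window. For each gene 1 start was used, the one nearest its annotated 5′ end. Bmf, Bbc3 and Bcl2l1 have 3 starts each and Bcl2l11 has 2. The start used for Bbc3 lay 1190 bases from the annotated 5′ end, and that for Bak1 382 bases. Among 32841 mouse promoters of the same length, 3.65% held the FOXO core, 8.86% the ETS core, 8.36% the p53 half-site, 5.2% the AP-1 site and 1.79% the cAMP response element. The Bcl2 window was 76.0% G and C with 44 CpG dinucleotides, that of Bcl2l1 52.3% with 22 and that of Bmf 55.3% with 13, beside a median over all promoters of 52.7% and 7.

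In the 12-hour exposure, the BH3-only genes Bmf and Bbc3 and the survival gene Bcl2l1 rose in R2b, and the survival gene Bcl2 fell. Bmf and Bcl2l1 rose again, and Bcl2 fell again, in the early 24-hour exposure. Neither effector passed the main test, which does not pair the pools by litter, at any exposure, nor did Bcl2l11, Pmaip1, Bid or Mcl1. With the litter as a block in edgeR, Bid, Pmaip1 and Bbc3 also passed in the early 24-hour exposure (FDR = 0.00938, 0.023 and 0.0183), beside 40.6% of all genes. A gene is called here when its false discovery rate (FDR), the Benjamini-Hochberg adjusted p of edgeR's quasi-likelihood test over all genes tested, is under 0.05. By that rule 4 of 10 members were called in the 12-hour exposure, where 20% of all genes were, 1518 of them higher and 1455 lower. The early 24-hour exposure had 3 of 10 members called, beside 15.6% of all genes, 1362 of them higher and 973 lower. In the late 24-hour exposure as labelled 0 of 10 were called, and 0% of all genes. There, 0 members had an unadjusted p under 0.05 in edgeR, as 1.15% of all genes did, and DESeq2 called 0 members too, and 0% of all genes. The median size of the members' log2 fold changes, leaving out the sign, was 0.32 at each of the early exposures against 0.26 and 0.16 over all genes. With the sign kept, the members' medians were -0.07 and 0.00, since rises and falls offset each other. RNA came from pools of tissue, so fewer cells of a kind and less RNA per cell cannot be told apart in any of these values.

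**Figure D1:**
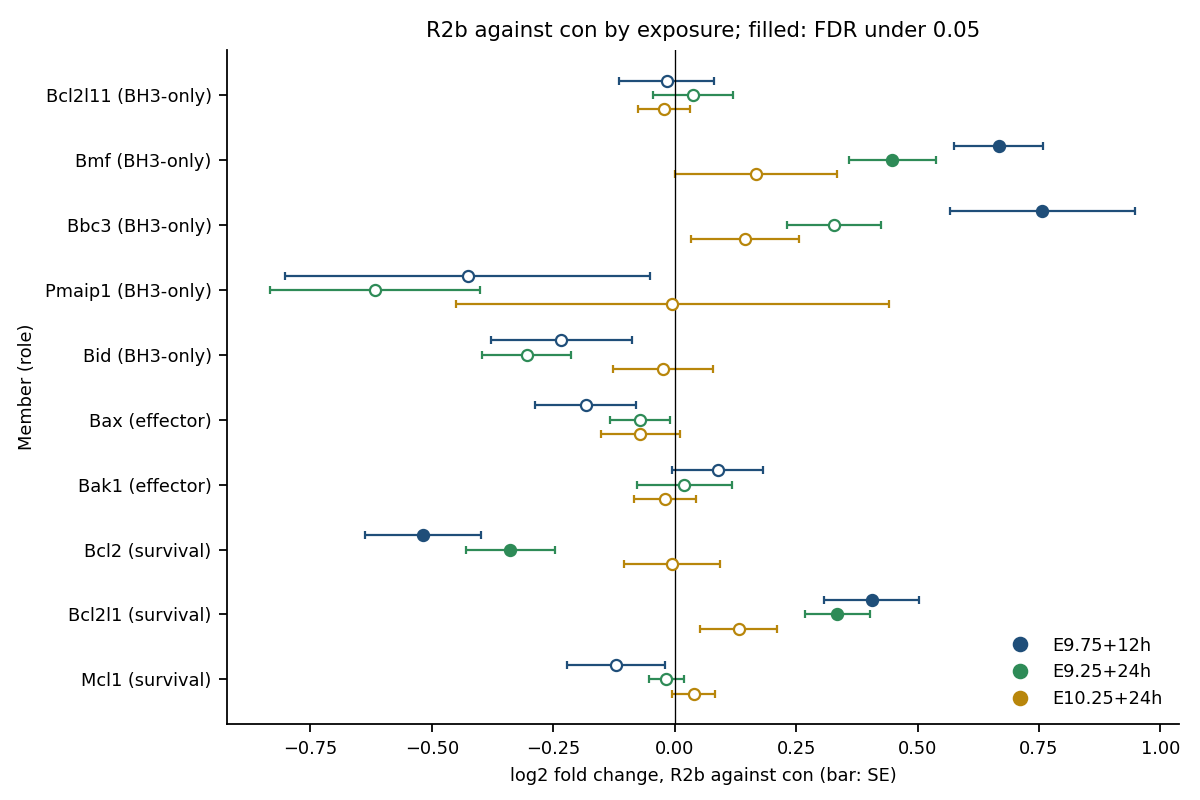
Log2 fold change of R2b against con (x axis) for each of the 10 members (y axis) at the 3 exposures, with bars for the standard error and filled points for an FDR under 0.05. Bmf and Bcl2l1 lie to the right of 0 and Bcl2 to the left at both early exposures, while Bcl2l11, Bak1 and Mcl1 lie near 0.

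Bmf encodes a BH3-only protein that is held on the myosin V motor through a dynein light chain and is released when cells lose attachment. It was measured at 139.7, 142 and 143 CPM in the con libraries of litters 1 to 3 in the 12-hour exposure, and at 245, 220.0 and 210.0 CPM in their R2b partners. Every R2b library stood above every con library. Its log2 fold change was 0.67 with a standard error (SE) of 0.09 (FDR = 0.00111), a rise of 1.59-fold seen in 3 of 3 litters. After 24 hours from E9.25, the con libraries had 194, 184, 189.9 and 151 CPM and the R2b libraries 256, 268, 236 and 221 CPM. The groups again did not overlap. Bmf rose there by 0.45 on the log2 scale, with an SE of 0.09 (FDR = 0.0142), with all 4 litters higher. Leaving out both pools of litter 1 or of litter 2 in the early 24-hour exposure ended the call (FDR = 0.0841 and 0.0838) at log2 fold changes of 0.46 and 0.43, as did leaving out the R2b pool of litter 1 (FDR = 0.0519). Blocking on the litter kept it called there without any 1 litter (FDR of 1.81e-05 to 0.000464). In the 12-hour exposure only the litter taken as a block together with leaving out litter 1 ended it (FDR = 0.0887).

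Bbc3 encodes Puma, a BH3-only protein that binds every survival member and is known as a target of p53. Its con libraries in the 12-hour exposure had 7.56, 6.28 and 8.54 CPM, and the R2b libraries 13.1, 10.1 and 14.7 CPM. No con library reached the lowest R2b library. Bbc3 rose by 0.76 on the log2 scale, with an SE of 0.19 (FDR = 0.0187), higher in 3 of 3 litters. The call was lost without litter 1 (FDR = 0.178), without litter 3 (0.0606), and without any 1 of the con pools of litters 1 and 2 or the R2b pools of litters 1 and 3, at log2 fold changes of 0.63 to 0.76. Levels of Bbc3 in the early 24-hour exposure were 6.99, 7.40, 7.59 and 7.60 CPM for con and 8.91, 8.97, 10.1 and 9.19 CPM for R2b. The groups did not overlap there either, yet the gene missed the threshold, at a log2 fold change of 0.33 with an SE of 0.10 (FDR = 0.0511). With the litter as a block it was called (FDR = 0.0183), but not with the block and without litter 1 or 3 (FDR = 0.0645 and 0.0746). DESeq2 called it as well (adjusted p = 0.0399), as it did 20.7% of all genes. Bbc3 is a low transcript, with 115 to 308 counts in a library.

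Bcl2l11 encodes Bim, the BH3-only protein best known as being held down by growth factor signalling through the MAP kinase ERK. It stood at 56.9, 58.5 and 55.9 CPM in con and 60.1, 55.2 and 53.9 CPM in R2b in the 12-hour exposure. The early 24-hour litters gave 73.2, 76.2, 76.5 and 62.2 CPM from con pools and 67.4, 78.3, 79.9 and 70.0 CPM from R2b pools. The groups overlapped at both exposures, and R2b differed from con by -0.02 on the log2 scale (SE 0.10, FDR = 0.922) in the former and by 0.04 (SE 0.08, FDR = 0.797) in the latter. Over 19 and 23 other settings its log2 fold change stayed between -0.07 and 0.01 and between -0.03 and 0.09, and no setting called it. Bim protein is also controlled by phosphorylation and turnover, which RNA counts do not measure.

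Pmaip1 encodes Noxa, a BH3-only protein that chiefly binds the Mcl1 protein. It was the lowest member, with 11 to 54 counts in a library. Con pools of the early 24-hour exposure had 2.25, 1.84, 2.87 and 2.40 CPM, and R2b pools 1.60, 1.12, 1.51 and 1.85 CPM. The highest R2b library lay just above the lowest con library, and all 4 litters were lower in R2b. R2b differed from con by -0.62 on the log2 scale with an SE of 0.22 (FDR = 0.0837). With the litter as a block the gene was called (FDR = 0.023), as were 40.6% of all genes. With the block and 1 litter left out in turn, it was called in 1 of 4 settings (FDR of 0.0198 to 0.111). The 12-hour value was -0.43 with an SE of 0.38 (FDR = 0.447), with 2 of 3 litters lower.

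Bid encodes the BH3-only protein that caspase-8 cuts, by which death receptors reach the mitochondria. Over the early 24-hour litters it had 19.9, 19.8, 23.2 and 18.9 CPM in con and 17.9, 17.1, 16.4 and 14.9 CPM in R2b. Each R2b library was below each con library, and the log2 fold change was -0.30 with an SE of 0.09 (FDR = 0.0549). The litter as a block and DESeq2 both put it past the threshold (FDR = 0.00938 and adjusted p = 0.0244), though not the block without litter 3 (FDR = 0.0539). For the 12-hour exposure con was 16.6, 16.2 and 15.8 CPM and R2b 13.0, 12.6 and 15.7 CPM, with a log2 fold change of -0.23 (SE 0.14, FDR = 0.274). Exons of Bid overlap those of Bcl2l13 on the opposite strand. Bcl2l13, another family member of uncertain part in cell death, fell in the early 24-hour exposure, by 0.16 on the log2 scale (SE 0.03, FDR = 0.0168). The libraries were stranded, but whether counting used the strand is not given in the sources used here, so the values of this pair are uncertain.

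**Figure D2:**
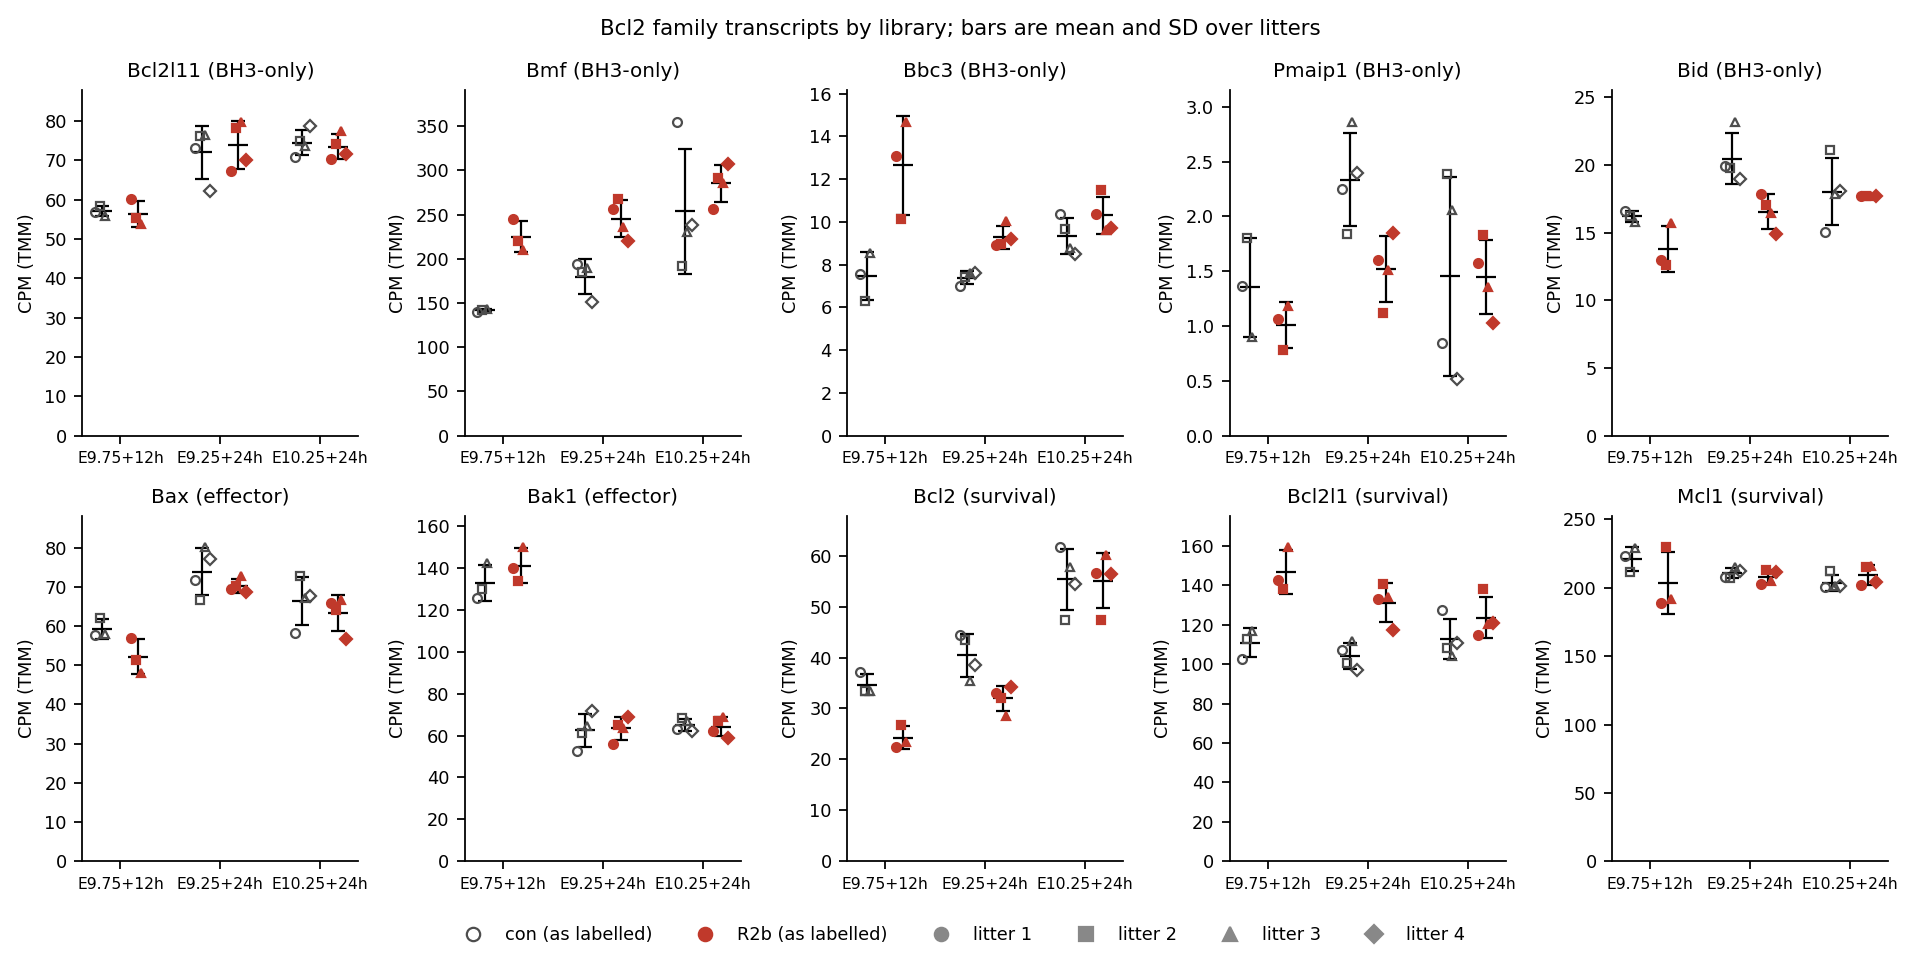
CPM (y axis, from 0) of each member in every library, by exposure (x axis), with con as open and R2b as filled symbols, a symbol shape per litter, and bars for the mean and SD over litters. In Bmf, Bcl2l1 and Bcl2 the con and R2b libraries separate at both early exposures, and at E10.25+24h the library labelled con of litter 1 is the highest Bmf library, at 355 CPM.

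The effectors Bax and Bak1 encode the proteins that form the pores of the outer mitochondrial membrane. Bax stood at 57.8, 62.1 and 57.9 CPM in con and 57.1, 51.4 and 48.1 CPM in R2b in the 12-hour exposure. Every R2b library was lower, by little in litter 1, and the log2 fold change of -0.18 (SE 0.10) did not pass the test (FDR = 0.235). Its groups overlapped in the early 24-hour exposure, at -0.07 (SE 0.06, FDR = 0.468). Bak1 was at 126, 130.1 and 142 CPM in con and 140.1, 134 and 150.0 CPM in R2b in the 12-hour exposure, with a log2 fold change of 0.09 (SE 0.09, FDR = 0.534). Over the early 24-hour litters Bak1 spanned 52.7 to 71.9 CPM in con and 56.0 to 68.7 CPM in R2b, with a log2 fold change of 0.02 (SE 0.10, FDR = 0.914). Thus Bak1 was about as high in R2b as in con within each exposure, but its con mean was 133 ± 8.61 CPM (SD, n = 3) in the 12-hour exposure against 62.5 ± 7.97 CPM (SD, n = 4) in the early 24-hour exposure. Both exposures ended at E10.25, but the library names of each exposure carry a prefix of their own, so the exposure and whatever the prefix marks cannot be told apart in that difference of levels. Exons of Bak1 overlap those of Ggnbp1 on the other strand, and those of Bax overlap an annotated gene, Gm45808, on the same strand.

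Bcl2 encodes the founding survival protein of the family, which binds and holds BH3-only proteins and effectors. Con and R2b pools of the 12-hour exposure were apart, for it had 37.2, 33.5 and 33.5 CPM in con and 22.4, 26.7 and 23.5 CPM in R2b. Bcl2 fell by 0.52 on the log2 scale (SE 0.12, FDR = 0.0123) in 3 of 3 litters. Over the early 24-hour litters Bcl2 had 44.4, 43.5, 35.3 and 38.5 CPM in con and 33.1, 32.0, 28.5 and 34.3 CPM in R2b. The con library of litter 3 lay close to the R2b library of litter 4, but the groups did not overlap. Bcl2 fell there by 0.34 on the log2 scale (SE 0.09, FDR = 0.0391), in 4 of 4 litters. The call was lost in the 12-hour exposure without litter 1 (FDR = 0.208) or litter 3 (0.0582) or without either single pool of litter 1 (0.0661 and 0.0596). It was lost in the early 24-hour exposure without litter 1 (0.173) or litter 2 (0.217), without the R2b pool of litter 1, 2 or 3, and without the con pool of litter 1 or 2 (FDR of 0.0791 to 0.1 for the single pools). Blocked by litter, the early 24-hour call held, at an FDR of 0.00136, and of 0.000285 to 0.0158 without any 1 litter. Its log2 fold change stayed negative, at -0.63 to -0.42 and -0.40 to -0.28, in all of 19 and 23 other settings. An antisense gene annotated across Bcl2 exons, D630008O14Rik, was not analysed here.

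Bcl2l1 encodes Bcl-xL, a survival protein, and by an alternative splice site the death-promoting Bcl-xS, which counts per gene do not separate. Levels in the 12-hour exposure were 103, 113 and 117 CPM in con and 142, 138 and 159 CPM in R2b. The con and R2b libraries stood apart, and the gene rose by 0.41 on the log2 scale (SE 0.10, FDR = 0.0154) in 3 of 3 litters. Levels in the early 24-hour exposure were 107, 100.5, 112 and 96.8 CPM in con and 133, 141, 134 and 117 CPM in R2b. All R2b libraries were again the higher, and Bcl2l1 rose by 0.33 on the log2 scale (SE 0.07, FDR = 0.0141), in 4 of 4 litters. The call was lost in the 12-hour exposure without litter 1 (FDR = 0.183) or litter 3 (0.0981), without the R2b pool of litter 3 (0.0673) or the con pool of litter 1 (0.0735). For the early 24-hour exposure it was lost without litter 1 (0.0925), litter 2 (0.0847) or the R2b pool of litter 1 (0.0502), at log2 fold changes of 0.34, 0.30 and 0.33. Blocked by litter, the early 24-hour FDR was 0.0002, and 0.000106 to 0.00197 without any 1 litter.

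Mcl1 encodes a short-lived survival protein. It was at 223, 212 and 229 CPM in con and 189, 229.7 and 192 CPM in R2b in the 12-hour exposure, where litter 2 was higher in R2b and the other litters lower. Its log2 fold change was -0.12 (SE 0.10, FDR = 0.42), and -0.26 without litter 2, when it was called (FDR = 0.0437). In that setting 4065 of 14984 genes were called, and it was the only 1 of 19 other settings that called Mcl1. With the block and 1 litter left out in turn, the FDR of Mcl1 was 0.0669 to 0.887. Mcl1 of the early 24-hour exposure spanned 207 to 215 CPM in con and 203 to 213 CPM in R2b, a log2 fold change of -0.02 (SE 0.04, FDR = 0.779). Its spread there was the narrowest of the 10 members relative to its level in con, with an SD of 3.66 CPM on a mean of 210.5 CPM (n = 4).

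By the count of members whose con and R2b libraries do not overlap, which needs no model, 6 of 10 separated in the 12-hour exposure (Bmf, Bbc3 and Bcl2l1 upward, Bid, Bax and Bcl2 downward), where 38.9% of all genes did. The count was 5 of 10 in the early 24-hour exposure (Bmf, Bbc3 and Bcl2l1 upward, Bid and Bcl2 downward), beside 22.4% of all genes. In the late 24-hour exposure as labelled 0 of 10 separated, beside 0.914%. With the litter as a block, all 4 calls of the 12-hour exposure held (FDR of 0.00891 for Bmf, 0.0314 for Bbc3, 0.0471 for Bcl2 and 0.04 for Bcl2l1), beside 11.9% of all genes. They did not all hold there with the block and 1 litter left out in turn. Bmf was then called in 2 of 3 settings. Bbc3, Bcl2 and Bcl2l1 were each called in 1 of 3, with FDRs of up to 0.215, 0.337 and 0.289. For the early 24-hour exposure the block gave 6 calls, adding Bbc3, Pmaip1 and Bid, beside 40.6% of all genes.

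The balance between the arms of the family depended on which members were set against each other. As a mean of log2 CPM, the 5 BH3-only members shifted against the 3 survival members by 0.24 ± 0.28 (SD, n = 3 litters) in the 12-hour exposure, with 1 of the litters at -0.08. The same measure shifted by -0.01 ± 0.06 (SD, n = 4) in the early 24-hour exposure and by 0.05 ± 0.18 (SD, n = 4) in the late 24-hour exposure as labelled. Taking the median over members in each library in place of the mean gave -0.64 in the 12-hour exposure, and -0.64 and -0.15 at the other exposures. That median is the level of the middle-ranked member. It was Bcl2l1 among the survival members and Bid among the BH3-only members, except Bbc3 in the 12-hour R2b pool of litter 1. The median thus compares single members and cannot check the mean over the family. Pairs of named members were read as well. The log2 ratio of Bcl2l1 to Bcl2 was higher in the R2b pool than in the con pool by 1.20, 0.62 and 0.95 in the litters of the 12-hour exposure. The early 24-hour litters were higher by 0.74, 0.93, 0.57 and 0.44. Within the survival arm, then, the transcript pool shifted from Bcl2 toward Bcl2l1 in each of these litters, by 0.92 ± 0.29 (SD, n = 3) and 0.67 ± 0.21 (SD, n = 4) on average. Since both genes were called in opposite directions, the ratio is a description of those calls. Bmf shifted against Bcl2 by 1.18 ± 0.31 and 0.79 ± 0.15, but against Bcl2l1 by only 0.26 ± 0.13 and 0.12 ± 0.10. Bmf against its fellow BH3-only gene Bcl2l11 shifted by 0.68 ± 0.07 and 0.41 ± 0.12. Bax against Bcl2, a ratio often used for the state of the pathway, shifted by 0.33 ± 0.34 and 0.27 ± 0.23, with values in single litters from 0.05 to 0.71 and from -0.00 to 0.52.

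**Figure D3:**
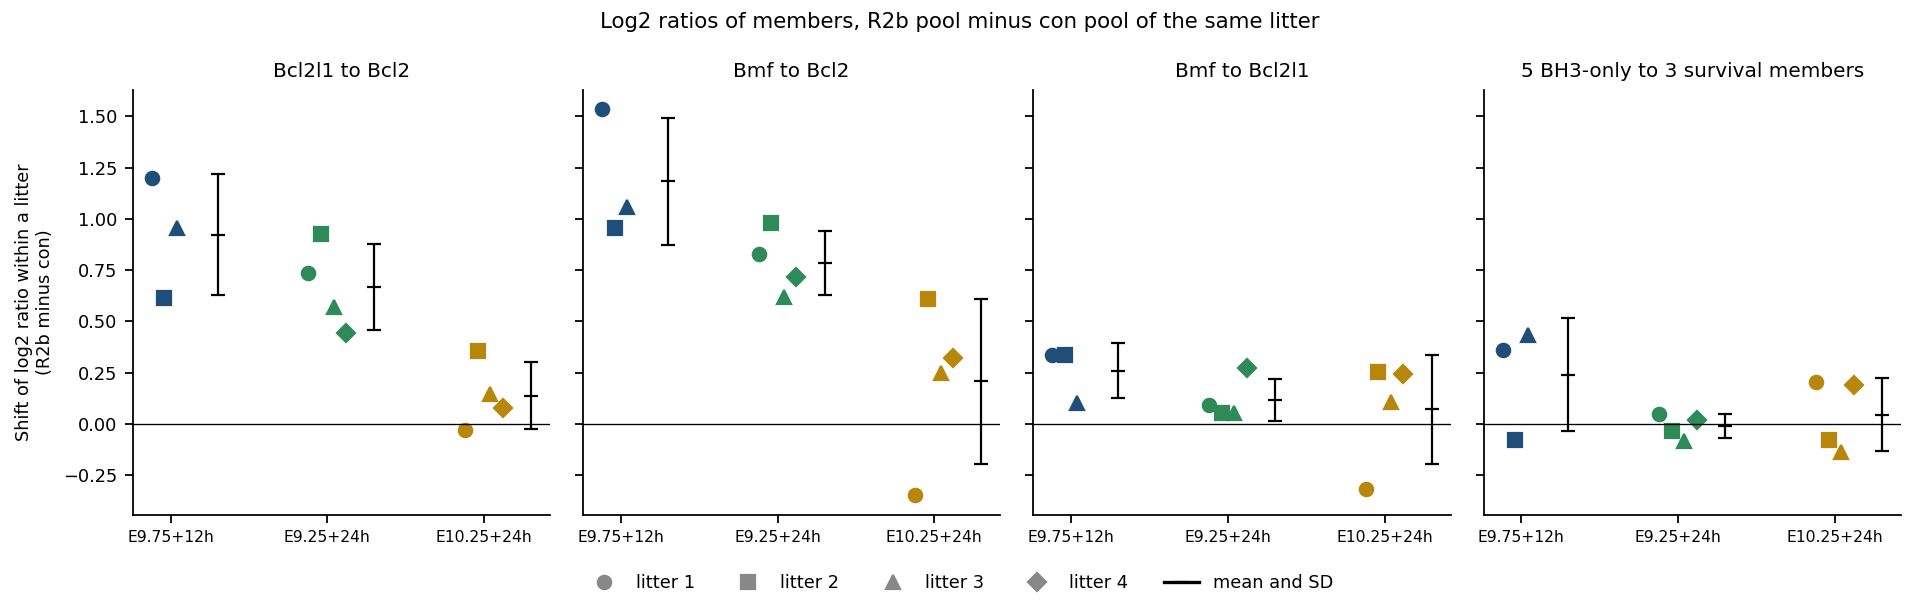
Shift of 3 log2 ratios of members and of the BH3-only to survival balance between the R2b and the con pool of a litter (y axis), by exposure (x axis), with a symbol shape per litter and bars for the mean and SD. The ratio of Bcl2l1 to Bcl2 is above 0 in all 7 litters of the early exposures, and the balance over all members lies on both sides of 0.

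Levels of different genes can be set side by side only per length of transcript, here as CPM per kilobase (kb) of all annotated exons of a gene, which may exceed the isoform in use. In con libraries in the early 24-hour exposure the order was Mcl1 at 61.6 ± 1.07 CPM per kb (SD, n = 4), Bax at 46.9 ± 3.82, Bmf at 34.2 ± 3.74, Bak1 at 26.0 ± 3.31 and Bcl2l1 at 22.7 ± 1.45. Below these stood Bcl2l11 at 8.97 ± 0.84, Bid at 5.76 ± 0.53, Bcl2 at 4.41 ± 0.47, Bbc3 at 3.48 ± 0.13 and Pmaip1 at 0.86 ± 0.16. Neighbours differed by more than the sum of their SDs, except Bak1 and Bcl2l1. Bcl2 was thus a low transcript in this epithelium even in con, and Mcl1 and Bcl2l1 made up most of the level of the chosen survival members. Levels per kb of other family genes, Bcl2l2 among them, were not compared, so the make-up of the whole survival arm was not tested. In R2b in the early 24-hour exposure Bmf, at 46.7 ± 4.00 CPM per kb, was level with Bax at 44.6 ± 1.12. In the 12-hour exposure the con order differed in Bak1, the second highest at 55.2 ± 3.58 (SD, n = 3), with Mcl1 at 64.7 ± 2.56, Bax at 37.6 ± 1.56 and Bmf at 27.0 ± 0.34.

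Whether the effect of R2b differed between exposures was tested as a difference of log2 fold changes in all 22 libraries. Between the early 24-hour exposure and the 12-hour exposure, 0 of 10 members passed, beside 0% of all genes, although 12.2% of all genes had an unadjusted p under 0.05. DESeq2 likewise called 0 members there, beside 99 genes (0.63%). The 1 member at that level was Bbc3, with a difference of -0.41 on the log2 scale (FDR = 0.374). Without litter 2 of the 12-hour exposure, Mcl1 passed at a difference of 0.25 (SE 0.07, FDR = 0.0314), as did 1062 of 15718 genes in that setting. Between the late 24-hour exposure as labelled and the early 24-hour exposure, 0 of 10 passed by edgeR, beside 0% of all genes, and 8.57% of all genes had an unadjusted p under 0.05. By DESeq2 0 members passed too, beside 73 genes (0.465%). Bcl2 was the 1 member at that level (0.33, FDR = 0.495).

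In the late 24-hour exposure no member passed the test with the libraries as labelled, and Bmf was the member that passed it in some settings without litter 1. Among litters 1 to 4, Bmf levels were 355, 192, 230.2 and 238 CPM under the label con, and 256, 292, 285 and 307 CPM under the label R2b. In litter 1 the library labelled con was the highest of all 8, and in litters 2, 3 and 4 the library labelled R2b was the higher of its pair, by 0.61, 0.31 and 0.37 on the log2 scale. As labelled, the difference was 0.17 on the log2 scale (SE 0.17, FDR = 1). Without litter 1 it was 0.43 (FDR = 0.107). With the litter as a block and without litter 1, Bmf was the 1 of 10 members called (FDR = 0.028), beside 4.04% of all genes. Without litters 1 and 3 and with the block it was 0.50 (FDR = 0.0246), again the 1 member called, beside 5.77% of all genes. Leaving out both litters was chosen after the reads of the transgene were seen.

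**Figure D4:**
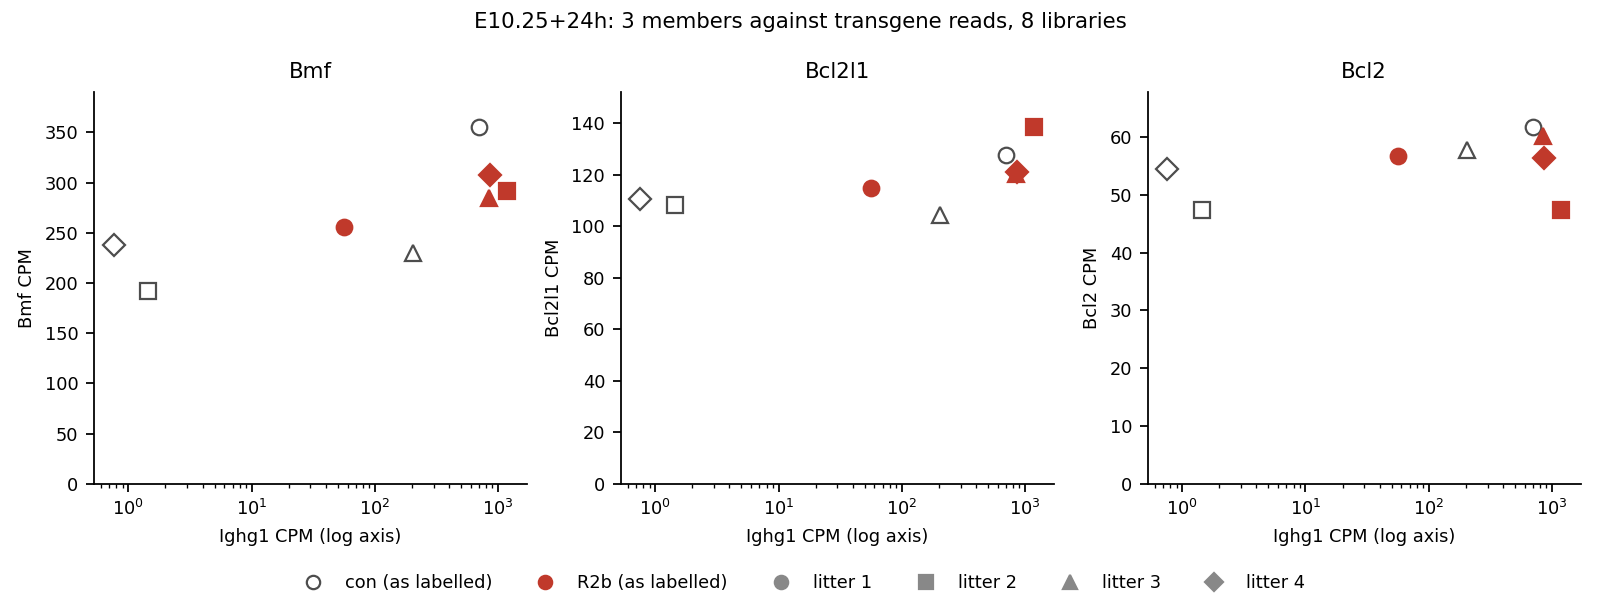
CPM of Bmf, Bcl2l1 and Bcl2 (y axes, from 0) against CPM of Ighg1 reads, which mark the transgene (x axis, log scale), in the 8 libraries of E10.25+24h, with con as open and R2b as filled symbols by label. The library labelled con of litter 1, with 702.5 CPM of Ighg1, lies with the R2b libraries and has the highest Bmf level, at 355 CPM.

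Bcl2l1 in the late 24-hour exposure had 128, 108, 104 and 111 CPM under the label con and 115, 138, 120.2 and 121 CPM under the label R2b, with overlap. R2b differed from con by 0.13 (SE 0.08, FDR = 1) as labelled and 0.24 without litter 1 (FDR = 0.183). Bcl2 was at 61.7, 47.4, 57.8 and 54.4 CPM and at 56.6, 47.3, 60.2 and 56.3 CPM. These groups overlapped, and the log2 fold change of -0.01 (SE 0.10) turned to 0.04 without litter 1 and to 0.03 without litters 1 and 3, with no call in any of them. The fall of Bcl2 seen at the early exposures was therefore not detectable in the late 24-hour exposure in the litters whose labels match the reads. Bbc3 was higher in the library labelled R2b in 4 of 4 litters, by almost nothing in litter 1, at 0.14 (SE 0.11) as labelled and 0.20 without litter 1 (FDR = 0.48). The remaining members had log2 fold changes between -0.07 and 0.04 as labelled. In the libraries labelled R2b Bid was nearly constant, at 17.7 ± 0.02 CPM (SD, n = 4), against 18.01 ± 2.48 CPM in those labelled con.

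Beyond the 10 members, 51 of 57 genes listed for the rest of the pathway were in the table and tested. In the 12-hour exposure 4 of 51 (7.84%) were called, 1 higher and 3 lower, below the 20% of all genes. The early 24-hour exposure had 11 of 51 (21.6%) called, 5 higher and 6 lower, beside 15.6% of all genes, and in the late 24-hour exposure 0 of 51. The median log2 fold changes of the 51 genes were -0.06, -0.05 and -0.01 at the 3 exposures, beside 0.01, -0.01 and 0.00 over all genes. With the litter as a block the counts were 2 and 23, beside 11.9% and 40.6% of all genes. Without both pools of litter 1 they were 1 and 1. With the block and 1 litter left out in turn, they were 1 to 9 in the 12-hour exposure and 17 to 25 in the early 24-hour exposure, where every gene of these lists named below as called stayed called. Without the block, many of these calls were lost. Over all 23 other settings there, Birc6 was called in 12, Bok, Birc5 and Tnfrsf10b in 13, Casp9 in 15 and Casp2 in 17. Tradd and Jun were called in 18, Bcl2l13 in 19 and Hrk in 20. In the 12-hour exposure Bcl2l14 was called in 7 of 19, Bnip2 in 9 and E2f1 in 12, and Birc5 in all 19. By edgeR 0 of 15688 genes passed the test of a difference between the early exposures. A call at only 1 of them therefore does not show a difference.

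Of 11 other Bcl2 family genes in the table, 2 (18.2%) were called in the 12-hour exposure, beside 20% of all genes. Bcl2l14 rose from 5.15 ± 0.36 to 7.91 ± 0.44 CPM (SD, n = 3), by 0.62 on the log2 scale (SE 0.18, FDR = 0.0311). Bnip2 fell by 0.31 on the log2 scale (FDR = 0.0482). With the litter as a block the log2 fold changes were 0.62 and -0.31 as before, and both calls were lost (FDR = 0.0835 and 0.0908). The early 24-hour exposure had 3 (27.3%) called, all lower, beside 15.6% of all genes. Hrk, a BH3-only gene known mainly from neurons, went from 2.18 CPM in con to 0.933 CPM in R2b and so fell by 1.22 on the log2 scale (SE 0.24, FDR = 0.0139). Bok, an effector-like gene, had -0.50 (SE 0.14, FDR = 0.0446). The third was Bcl2l13, given above with Bid.

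Among 11 genes of the apoptosome, caspases and nucleases, 0 were called in the 12-hour exposure, beside 20% of all genes. In the early 24-hour exposure 2 (18.2%) were called, beside 15.6% of all genes. Casp9, the initiator caspase of the mitochondrial pathway, rose by 0.23 on the log2 scale (SE 0.05, FDR = 0.0247), and Casp2 fell by 0.22 (SE 0.05, FDR = 0.0225). In the 12-hour exposure, without a call, Casp9 had 0.21 (FDR = 0.161) and Casp2 -0.21 (FDR = 0.141). Apaf1, the scaffold on which caspase-9 is activated, had -0.11 (FDR = 0.469) and -0.06 (FDR = 0.56) at the early exposures. Of 7 inhibitors of apoptosis and their antagonists, 1 (14.3%) was called in the 12-hour exposure and 2 (28.6%) in the early 24-hour exposure. The shares of all genes were 20% and 15.6%. Birc5 fell at both exposures, by 0.92 (SE 0.11, FDR = 0.000704) and by 0.33 (SE 0.08, FDR = 0.0316). Birc5 encodes survivin, which also works in cell division and is made mostly by cells in G2 and M phase. Birc6 fell by 0.16 in the early 24-hour exposure (SE 0.04, FDR = 0.0323) and had -0.10 (FDR = 0.468) in the 12-hour exposure. Xiap, the direct caspase inhibitor, had -0.19 (FDR = 0.21) in the 12-hour exposure and -0.05 (FDR = 0.571) in the early 24-hour exposure.

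The death receptor list had 7 genes in the table, with 0 called in the 12-hour exposure, beside 20% of all genes. In the early 24-hour exposure 3 (42.9%) were called, all higher, beside 15.6% of all genes. Casp8, which encodes the initiator caspase of death receptors and cuts Bid, rose from 27.3 to 41.8 CPM, by 0.62 on the log2 scale (SE 0.06, FDR = 0.000831), and was called in all 23 other settings. Tradd, an adaptor of tumour necrosis factor receptors, rose by 0.54 (SE 0.11, FDR = 0.0175), and the receptor gene Tnfrsf10b by 0.36 (SE 0.10, FDR = 0.0373). The genes of the list not called there went both ways. Fadd had -0.20 (FDR = 0.14) and Tnfrsf1a -0.30 (FDR = 0.212), while Ripk1 had 0.22 (FDR = 0.165) and Cflar 0.13 (FDR = 0.37). In the 12-hour exposure Casp8, Tradd and Tnfrsf10b were higher as well but not called. Their log2 fold changes were 0.37 (FDR = 0.0702), 0.38 (FDR = 0.156) and 0.475 (FDR = 0.0554).

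**Figure D5:**
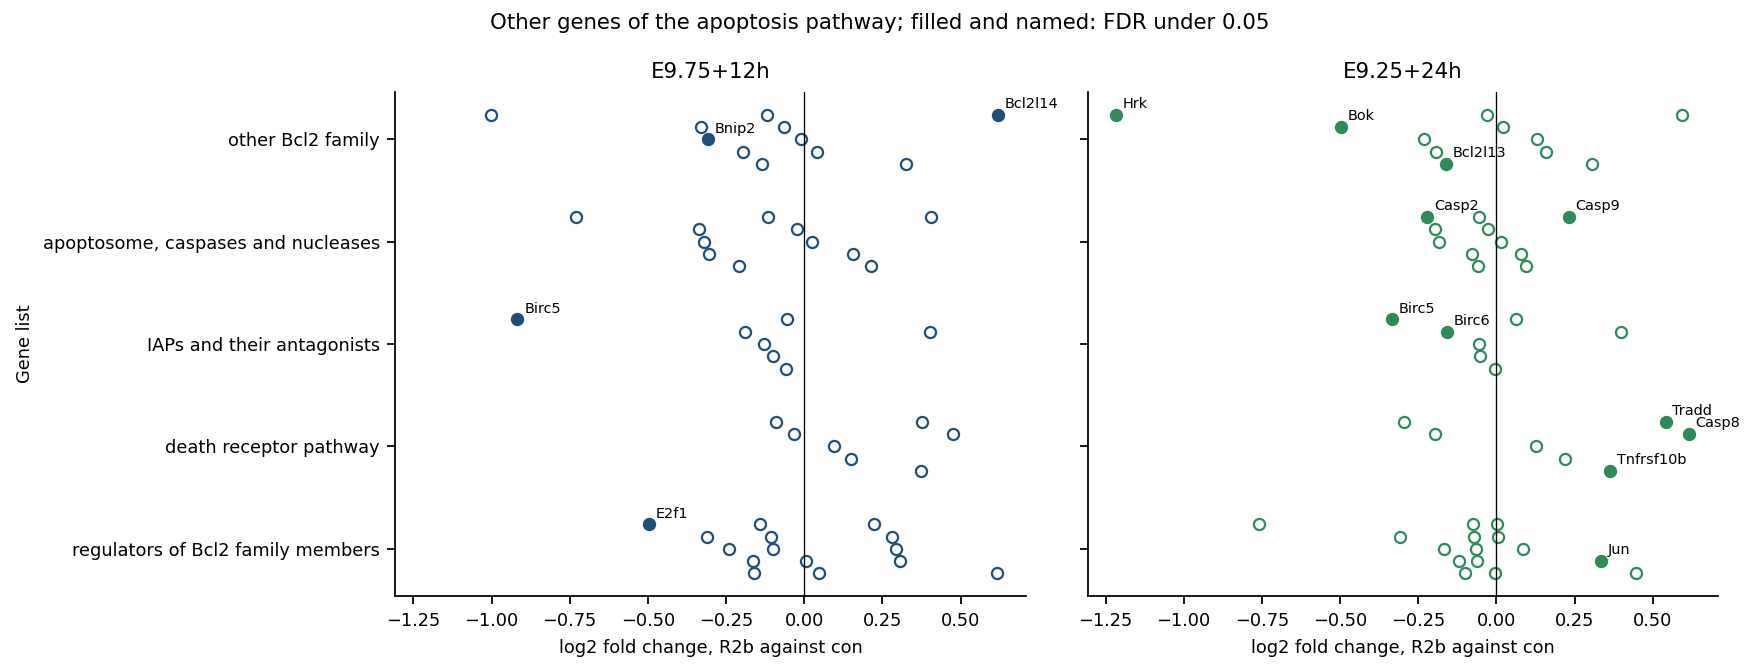
Log2 fold change of R2b against con (x axis) of each tested gene of the 5 pathway lists (y axis) at E9.75+12h and E9.25+24h, with filled, named points for an FDR under 0.05 and vertical offsets for legibility. The 3 filled points of the death receptor list at E9.25+24h are all to the right of 0, and Birc5 lies to the left in both panels.

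Of 15 known regulators of family members, 1 (6.67%) was called at each early exposure, below the 20% and 15.6% of all genes. E2f1, a cell cycle factor that can switch on BH3-only genes, fell by 0.50 in the 12-hour exposure (SE 0.13, FDR = 0.0234), and Jun rose by 0.33 in the early 24-hour exposure (SE 0.07, FDR = 0.0205). Without a call, E2f1 had -0.31 (FDR = 0.218) in the early 24-hour exposure, and Jun 0.31 (FDR = 0.0889) in the 12-hour exposure. The FOXO factors act on Bcl2l11 and Bbc3 in other tissues. Foxo1 had log2 fold changes of 0.28 (FDR = 0.0844) and 0.45 (FDR = 0.0869), and Foxo3 had 0.22 (FDR = 0.126) and 0.09 (FDR = 0.705). Trp53, the gene of p53, had -0.16 (FDR = 0.362) and -0.17 (FDR = 0.132). A list of 12 p53 targets that holds no family member had 4 genes called in the 12-hour exposure, 3 higher and 1 lower, and 5 called in the early 24-hour exposure, all higher. These were 33.3% and 41.7% of the list, beside 20% and 15.6% of all genes. Cdkn1a, which encodes the cell cycle inhibitor p21, rose by 0.89 (SE 0.11, FDR = 0.000853) in the 12-hour exposure and by 0.94 (SE 0.11, FDR = 0.00201) in the early 24-hour exposure. Sesn2 rose likewise, by 0.76 (FDR = 0.00219) and 0.68 (FDR = 0.00347). Gtse1 fell by 0.75 in the 12-hour exposure (FDR = 0.0108) and had -0.31 (FDR = 0.105) in the early 24-hour exposure. Trp53inp1 rose by 0.75 (FDR = 0.0114) in the 12-hour exposure and by 0.73 (SE 0.15, FDR = 0.0161) in the early 24-hour exposure. In the latter Perp rose by 0.92 (FDR = 0.0221) and Ccng1 by 0.34 (FDR = 0.0369). Their 12-hour values, without a call, were 0.72 (FDR = 0.199) and 0.24 (FDR = 0.254). Of the targets called at neither early exposure, Aen (-0.33 and -0.20), Mdm2 (-0.17 and -0.05) and Plk2 (-0.16 and -0.05) were below 0. Phlda3 (0.37 and 0.13) and Zmat3 (0.16 and 0.07) were above 0, and Eda2r had 0.11 and -0.17. The list's medians were 0.20 and 0.10, beside 0.01 and -0.01 over all genes.

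The 5 genes most like Bmf across the 22 libraries, by Pearson r of log2 CPM centred within each exposure over 14523 genes, were Irx6 (r = 0.966), Gab1 (0.955), Zfyve1 (0.95), Fah (0.946) and Ctsa (0.944). Within the family Bcl2l1 was closest to Bmf at r = 0.872, followed by Bbc3 at 0.706, and Bid (-0.707), Bax (-0.67), Bcl2 (-0.523) and Pmaip1 (-0.523) ran the other way. Bcl2l11 was at 0.121. The libraries share the groups of the design, so these r values describe the pattern and carry no test.

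Markers of other cell types that the dissection could hold were read in the same libraries. Beside the counts below, 20% of all genes were called in the 12-hour exposure and 15.6% in the early 24-hour exposure. In the 12-hour libraries 5 of 9 otic neuroblast markers in the table (Tubb3, Neurog1, Dcx, Neurod1 and Nhlh1) were called higher in R2b, with a summed level of 287 to 321 CPM in con and 416 to 485 CPM in R2b. Of these 9, 0 were called in the early 24-hour exposure, at 206 to 396 CPM and 213 to 240.5 CPM. Mesenchyme markers summed to 115 to 374 CPM and 218 to 391 CPM in the 12-hour exposure and to 87.4 to 1296 CPM and 96.1 to 1205 CPM in the early 24-hour exposure. A single one of 11 mesenchyme markers (Lum) was called, as higher, in the 12-hour exposure. Of 10 endothelium markers 1 (Tek) was called, lower, in the 12-hour exposure, with sums of 17.3 to 56.6 CPM and 19.7 to 41.2 CPM. Of 8 macrophage markers 2 and 3 passed the filter at the early exposures and 0 were called, with sums of 6.10 to 14.5 CPM in con and 7.37 to 7.95 CPM in R2b in the 12-hour exposure. Blood markers summed to 20.6 to 769 CPM and 91.6 to 117 CPM in the 12-hour exposure, with 0 called at any exposure. Of 12 hindbrain markers 4 were in the table, and 1 was called in the 12-hour exposure, as higher. The sums there did not overlap, at 9.94 to 12.1 CPM in con and 17.0 to 20.3 CPM in R2b, and in the early 24-hour exposure they were 7.80 to 26.0 CPM and 18.1 to 35.4 CPM with 0 called. No marker in the table was at 0 in every library of a group. The part of neuroblasts and of hindbrain tissue in the members' values was not tested. Mitochondrial reads were 4.00% to 6.69% of counts in the 12-hour exposure and 1.53% to 1.70% in the early 24-hour exposure, in overlapping ranges of con and R2b.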

How the data were processed

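The authors deposited 1 table of read counts, unnormalized and whole-numbered, with 15736 Ensembl gene rows. Per the submitters' processing notes, reads were handled with Novoalign 2.08.03 on mm10. The counting tool, its use of strand, the annotation and any filter on genes are not given in the sources used here. Per the labels' protocols, libraries were stranded and oligo(dT)-selected. Symbols and positions came from GENCODE M21 on GRCm38, with 214 genes unnamed. Of 24 samples 22 had a column. The 12-hour exposure therefore has 3 litters, and 2 columns that match no sample were not used.

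CPM values were computed here from the deposited counts with trimmed mean of M-values (TMM) factors within an exposure, and log2 CPM with a prior count of 2. Each exposure was fitted alone in edgeR 4.0.16 under R 4.3.3 (filterByExpr, estimateDisp, glmQLFit, glmQLFTest, 2-sided, 2 group means). Calls are at a Benjamini-Hochberg adjusted p (FDR) under 0.05 over all genes tested, and SEs come from the F statistic. Differences of effects are contrasts of 6 group means over 22 libraries. The scripts were tested on simulated data. No columns were identical, and 30 same-group pairs of libraries differed by more than counting error (chi-square 5.48 to 44.2 for each degree of freedom). Intervals from counts alone would cover counting error only, since reads carry no molecular identifiers.

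The labels state that a litter gave both pools, which pairs them. The correlation of same-litter deviations from group means, across genes, was -0.116, -0.237 and -0.255 in the 12-hour exposure (E9.75+12h), 0.424, 0.495, 0.766 and 0.749 in the early 24-hour exposure, and -0.114, 0.387, 0.309 and 0.295 in the late one. The litter as a block was an alternative, as were size factors by median of ratios, a mean CPM of at least 1, testing without a filter, robust dispersion, 1 fit of all libraries, DESeq2 1.42.0, a prior count of 0.5, the median over members, and leaving out each litter or library. Members, lists and tests were chosen with earlier results of these data known. The rule for named genes takes all members, Ighg1 and Fgfr2 as marks of the transgene, and up to 3 called genes per list and exposure, smallest FDR first. Apaf1, Xiap, Foxo1, Foxo3 and Trp53 were named for their roles, and called markers of other cell types after their values were seen, outside that rule. Uncalled genes of the death receptor and p53 target lists, and called p53 targets beyond the first 3, were also named outside it, to show the rest of those lists. Values of named genes at an early exposure where they were not called were added likewise.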

Additional observations from a re-analysis of the deposited data

Results flagged for a closer look

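Among 40 groups of 4 libraries (10 members in the con and R2b groups of the 4-litter exposures), 1 held a library far from the others. Mcl1 in the libraries labelled con in the late 24-hour exposure was at 212.5 CPM in litter 2, while the other litters lay between 200.2 and 201.3 CPM. The gap to the nearest other library was 0.912 of the group's range, above Dixon's critical value of 0.829 for 4 samples. Chance gives such a gap in about 1 of 20 groups. The partner labelled R2b of the same litter was at 215 CPM, and the log2 fold change of Mcl1 there was 0.04 (FDR = 1).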

How the results depend on the processing

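Normalization, filters and robust dispersion left the count of called members at 4, 3 and 0 in the 12-hour, early 24-hour and late 24-hour exposures, except that a mean CPM of at least 1 gave 4 in the second. The litters used mattered more. Leaving out single libraries or litters, with or without the litter as a replicate block, gave 0 to 5, 0 to 6 and 0 to 1 called members, and 1 to 13, 1 to 25 and 0 to 1 called genes of the pathway lists. For the difference between the early exposures such settings gave 0 to 1 members. In the 12-hour exposure the pathway lists had 2 calls with the litter as a replicate block, 8 by DESeq2 and 16 with all libraries in 1 fit, against 4. The early 24-hour exposure had 6 members and 23 pathway genes called with the block, and 5 members by DESeq2, against 3 and 11. Leaving out litters 1 and 3 of the late exposure with the block, a setting chosen after seeing the data, gave 1 member and 2 pathway genes, and without the block 0 of each. The block with all litters changed no other member's call.

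The log2 fold changes that turned their direction were near 0. With 1 library or litter left out, Bcl2l11 ranged from -0.0738 to 0.008, from -0.0279 to 0.0896 and from -0.0549 to 0.020 in the 3 exposures. Bak1 ranged from -0.0549 to 0.0938 in the early and from -0.054 to 0.0222 in the late 24-hour exposure, and Mcl1 from -0.0287 to 0.0002 in the early one. In the late exposure Pmaip1 ranged from -0.28 to 0.43, Bid from -0.0964 to 0.0586 and Bcl2 from -0.0762 to 0.0556. There, Pmaip1 turned to 0.14 with the litter block and to 0.13 without litters 1 and 3 and with it, and Bcl2 to 0.0339 without litters 1 and 3 and to 0.0325 with the block as well. The causes were not tested. The 11 to 54 counts of Pmaip1 in a library limit what can be said of it.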
